A study of Mus musculus with 19 samples.

Results

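Lipoxygenase and leukotriene genes were followed across 19 arrays of mouse hippocampal RNA, as 10 of the 19938 genes measured. The genes were taken by symbol and each had 1 probe set, so no choice between probe sets arose. They comprised 6 lipoxygenase genes (Alox5, Alox8, Alox12, Alox12b, Alox15 and Aloxe3), Alox5ap, the hydrolase gene Lta4h, the synthase gene Ltc4s and the receptor gene Cysltr1. Alox12b was selected on its measured values, as it was already known to lie among the large falls on ibuprofen chow in these arrays. Its values are therefore given as a description, with no test, in every comparison.

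The mice were 6 months old and on the C57BL/6J background. APP-PS1 mice (genotype APPSwe-PS1deltaE9) develop amyloid plaques. As background, the line of this name carries its transgenes under the mouse prion protein promoter, which the labels do not state. Their wild-type littermates were the controls. Both genotypes ate ProLab RMH 3000 chow, either plain or with 375 ppm ibuprofen, from 3 months of age. There were 4 arrays for wild-type mice on control chow and 5 for each of wild-type on ibuprofen, APP-PS1 on control and APP-PS1 on ibuprofen chow. The labels do not say which arrays come from separate animals, so p-values measure the spread between these samples, which may be technical.

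Lipoxygenases add oxygen to polyunsaturated fatty acids such as arachidonic acid, the same substrate that cyclooxygenases, the targets of ibuprofen, turn into prostaglandins. The 5-lipoxygenase Alox5, helped by the membrane protein Alox5ap, makes leukotriene A4. Lta4h hydrolyses it to leukotriene B4 and Ltc4s joins it to glutathione to give leukotriene C4, whose products act on Cysltr1. Alox12b and Aloxe3 act in sequence on the lipids of the skin barrier, and Alox12, Alox15 and Alox8 make hydroperoxides of arachidonic acid. In brain, leukotriene synthesis is mostly ascribed to microglia and other myeloid cells, although neurons have been reported to make Alox5.

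In the RefSeq table for GRCm38.p6, Aloxe3, Alox12b and Alox8 are neighbouring protein-coding genes on chromosome 11, in that order. Alox12, Alox15 and Ltc4s lie elsewhere on chromosome 11, Alox5 on chromosome 6, Alox5ap on 5, Lta4h on 10 and Cysltr1 on X. Promoters of 6 of the 10 genes, covering 250 bases before the start and 50 after it, were matched in RefSeq. Those of Alox12b and its neighbour Alox8 are shown because both genes were at their lowest mean in the same group, and that of Alox5 because it starts the leukotriene pathway. Aloxe3 and Lta4h were also lowest in that group. The promoter of Aloxe3 was not matched, and that of Lta4h is described by its GC boxes only. Capitals mark the GC box GGGCGG on either strand, and the TATA box TATAAA was searched on both strands as well.
Alox12b (GRCm38.p6, chr11:69156822-69157121, plus strand): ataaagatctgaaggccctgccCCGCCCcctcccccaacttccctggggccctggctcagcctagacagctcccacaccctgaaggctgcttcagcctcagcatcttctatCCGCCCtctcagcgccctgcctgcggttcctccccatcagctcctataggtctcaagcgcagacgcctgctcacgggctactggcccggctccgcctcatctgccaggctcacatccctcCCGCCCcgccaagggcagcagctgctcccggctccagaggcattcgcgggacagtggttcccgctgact
Alox8 (GRCm38.p6, chr11:69197794-69198093, minus strand): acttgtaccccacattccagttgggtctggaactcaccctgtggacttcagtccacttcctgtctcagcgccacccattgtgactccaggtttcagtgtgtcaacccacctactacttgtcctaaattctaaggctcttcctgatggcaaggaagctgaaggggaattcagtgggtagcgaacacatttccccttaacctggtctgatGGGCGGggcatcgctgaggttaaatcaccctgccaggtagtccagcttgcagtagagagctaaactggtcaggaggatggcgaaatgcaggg
Alox5 (GRCm38.p6, chr6:116461129-116461428, minus strand): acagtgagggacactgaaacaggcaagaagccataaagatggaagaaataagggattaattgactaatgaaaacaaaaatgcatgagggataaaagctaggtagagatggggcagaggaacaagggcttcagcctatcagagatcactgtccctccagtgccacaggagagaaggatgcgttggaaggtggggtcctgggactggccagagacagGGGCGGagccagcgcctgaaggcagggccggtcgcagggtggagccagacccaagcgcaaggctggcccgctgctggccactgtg

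The Alox12b promoter held 3 GC boxes and that of Alox8 and of Alox5 held 1 each, while 35.7% of the 32851 promoters in the table held at least 1. Of the matched promoters not shown, that of Alox12 also held 3, and those of Lta4h and Ltc4s held 0. None of the 3 windows shown held TATAAA, which 13.6% of all promoters did. The GC content was 66.0% for Alox12b, 52.7% for Alox8 and 55.7% for Alox5, beside a median of 52.7% over the table. A match in letters describes the sequence only.

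Every value is a log2 level of a probe set, and differences are on the log2 scale. Errors of group means are SDs over 4 wild-type control arrays and over 5 arrays in each other group, and errors of differences are SEs. The array medians lay between 8.06 and 8.14. Wild-type ibuprofen replicate 5 stood apart, with a median correlation of 0.987 with the other arrays across genes, followed by wild-type ibuprofen replicate 1 at 0.992. The remaining arrays lay at 0.994 to 0.997. Hippocampal neuron markers (11 of 12 measured, Camk2a and Prox1 among them) had means between 11.03 and 11.50 on every array, whereas choroid plexus markers (15 of 17 measured) ran from 7.70 to 10.35. In bulk tissue, fewer cells of a type and less RNA per cell cannot be told apart. The arrays carry no detection call here, and 8 of the 10 genes had a mean above the 7.15 below which the dimmest genes lie. Alox12 and Alox15 did not, and whether their signal stands above background is unknown.

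**Figure D1:**
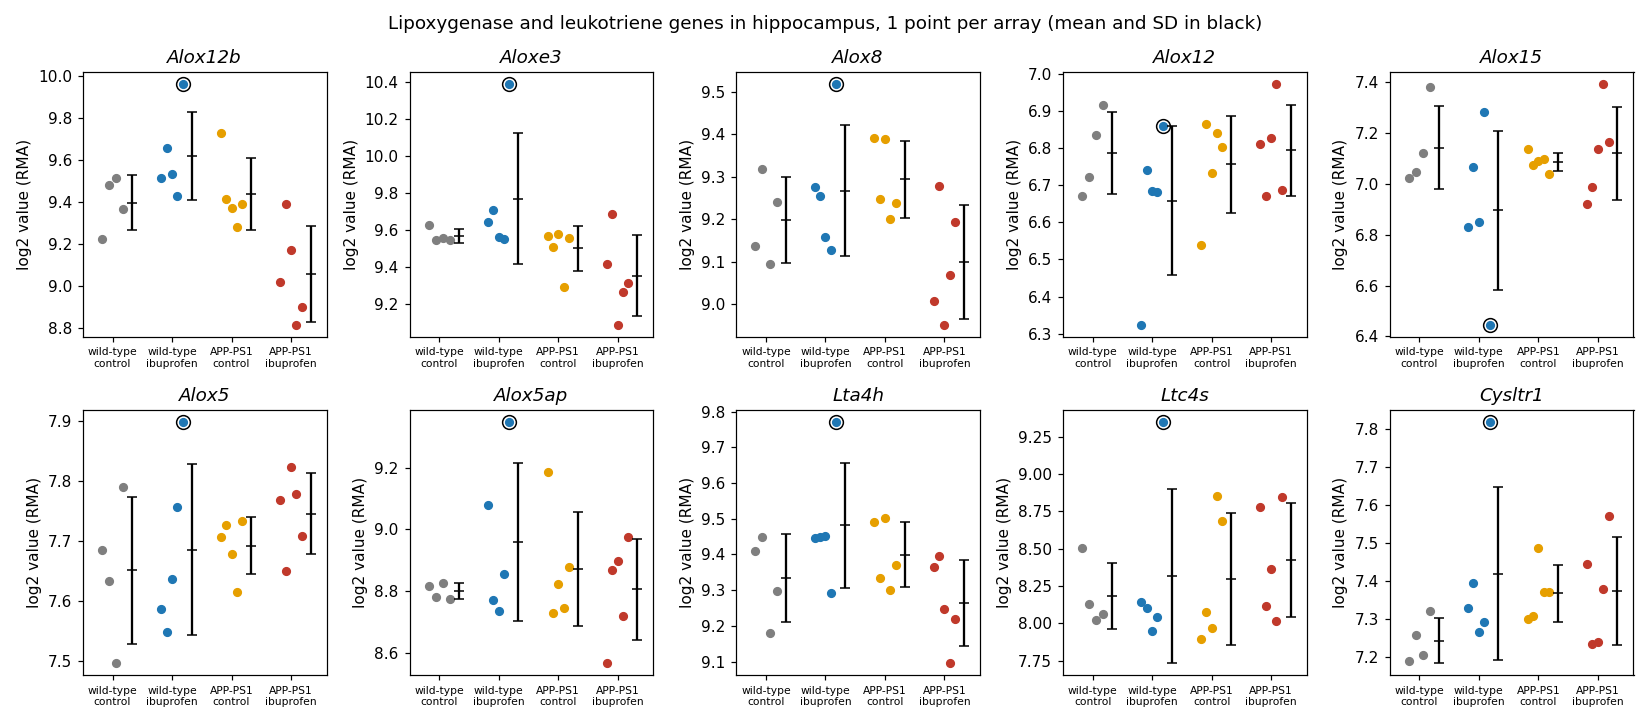
Log2 value of each gene (vertical axes, 1 panel per gene, axes not shared) on every array, by genotype and diet, with the group mean and SD in black. The ringed point is wild-type ibuprofen replicate 5, which is the highest array for 8 of the genes, the lowest for Alox15 at 6.45, and neither for Alox12.

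Alox12b, the 12R-lipoxygenase best known from epidermis (probe set 10377490), was lowest in APP-PS1 hippocampus on ibuprofen chow. Its 4 wild-type control arrays gave 9.23, 9.48, 9.52 and 9.36, with a mean of 9.40 ± 0.13 (SD, n = 4). On ibuprofen, wild-type arrays gave 9.51, 9.66, 9.53, 9.43 and 9.96, with a mean of 9.62 ± 0.21 (SD, n = 5). The highest of these was replicate 5, the array that stood apart.

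In APP-PS1 mice Alox12b stood at 9.73, 9.41, 9.37, 9.28 and 9.39 on control chow, a mean of 9.44 ± 0.17 (SD, n = 5). On ibuprofen chow the arrays gave 9.02, 9.39, 9.17, 8.82 and 8.90, a mean of 9.06 ± 0.23 (SD, n = 5). Replicate 2 thus lay within the range of the APP-PS1 control arrays and the other 4 lay below all of them. The order of the group means was wild-type ibuprofen, APP-PS1 control, wild-type control and APP-PS1 ibuprofen, and only the last stood clear of its neighbour by more than the SD of either group.

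Between genotypes on ibuprofen chow Alox12b differed by -0.56 ± 0.11 (SE), a linear ratio of 0.680, and the groups did not overlap. Nothing is read from this, since the gene was chosen for its values in these arrays, and the share of all genes lower without overlap there was 2.06%. Ibuprofen differed from control chow by -0.38 ± 0.11 (SE) in APP-PS1 and by 0.22 ± 0.12 (SE) in wild-type mice, and genotype on control chow gave 0.04 ± 0.12 (SE). Without wild-type ibuprofen replicate 5 the wild-type ibuprofen difference was 0.13 ± 0.11 (SE) and the genotype difference on ibuprofen was -0.47 ± 0.10 (SE), and without APP-PS1 ibuprofen replicate 2 it was -0.64.

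The Alox12b level went with markers of hippocampal neurons from array to array. The mean of the 11 markers was 11.05, 11.30, 11.04, 11.04 and 11.03 in APP-PS1 ibuprofen replicates 1 to 5. Replicate 2, the one with Alox12b in the control range, was therefore also the one with these markers in the control range, which ran from 11.19 to 11.35 in APP-PS1 mice and from 11.23 to 11.34 in wild-type mice. Wild-type arrays on ibuprofen lay at 11.36 to 11.50, with replicate 5 the highest for the markers as for Alox12b.

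Between genotypes on ibuprofen chow all 11 of the markers were below 0 (median -0.21), against a median of -0.05 over all genes, and limma called 3 of them lower. These were Dsp, a desmosomal gene of dentate granule cells (-1.29 ± 0.19, SE, adjusted p = 0.00545), Prox1, the transcription factor of granule cells (-0.46 ± 0.08, SE, adjusted p = 0.0128), and Lct, a further gene of the neuron list (-0.66 ± 0.13, SE, adjusted p = 0.0315). The other markers were not called and ran from -0.29 (Calb1) to -0.02 (Camk2a), with Grik4, Neurod6 and Neurod2 at -0.06, -0.07 and -0.08. The lower marker mean was thus uneven over its genes and does not stand for hippocampal neurons in general. Dsp was 9.31 in APP-PS1 ibuprofen replicate 2 and 8.35 to 8.46 in the other 4 arrays of that group. With the marker mean as a covariate, the Alox12b difference on ibuprofen chow was -0.05 ± 0.17 (SE). The marker mean itself differs between these groups (11.09 in APP-PS1 and 11.41 in wild-type mice on ibuprofen), so this fit cannot separate marker from group. Alox12b was chosen for its values and the covariate after seeing the data, so the fit is a description only. The same covariate changed the sign of this difference for Aloxe3, Alox8, Alox15, Alox5ap and Lta4h, but not for Alox5 or Alox12. The part of the marker mean in the Alox12b values was not tested.

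**Figure D2:**
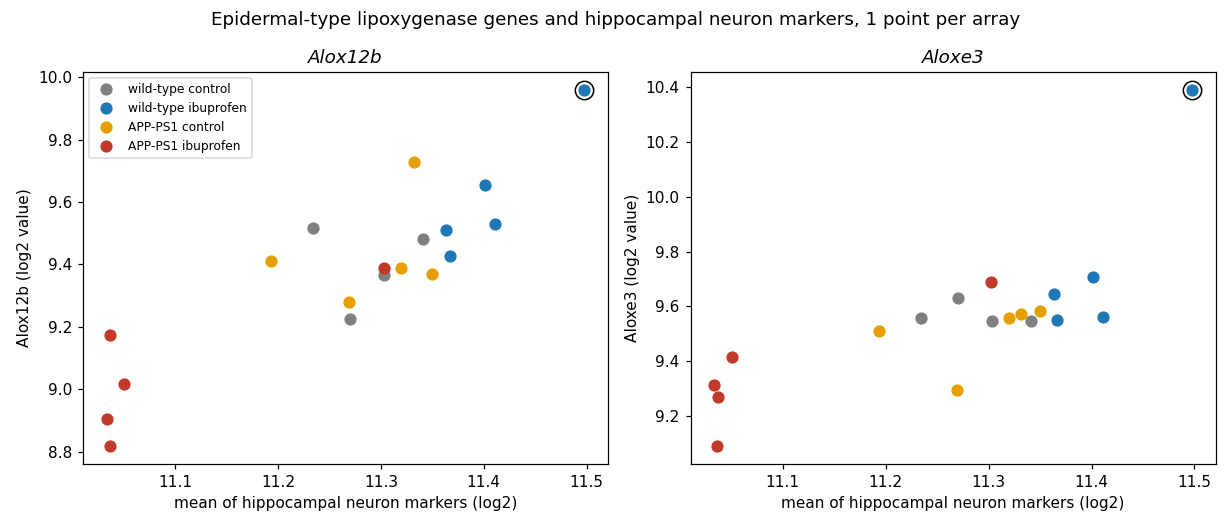
Log2 value of Alox12b (left) and Aloxe3 (right) against the mean of 11 hippocampal neuron markers, 1 point per array, coloured by genotype and diet, with wild-type ibuprofen replicate 5 ringed. The 4 APP-PS1 ibuprofen arrays with marker means of 11.03 to 11.05 have Alox12b values of 8.82 to 9.17, and replicate 2 of that group (11.30) lies among the control arrays.

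Aloxe3, which encodes the enzyme that isomerises the Alox12b product (probe set 10377473), had the largest difference among the 9 other genes between genotypes on ibuprofen chow. APP-PS1 arrays on ibuprofen gave 9.41, 9.69, 9.09, 9.27 and 9.31, a mean of 9.35 ± 0.22. Wild-type arrays on ibuprofen gave 9.64, 9.71, 9.56, 9.55 and 10.39, a mean of 9.77 ± 0.35. APP-PS1 replicate 2 was again the highest of its group and wild-type replicate 5 was far above the rest, so that 4 of 5 APP-PS1 values were lower than any in wild-type mice.

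The Aloxe3 mean on control chow was 9.57 ± 0.04 for wild-type arrays and 9.50 ± 0.12 for those from APP-PS1 mice. The genotype difference on ibuprofen was -0.42 ± 0.13 (SE, limma adjusted p = 0.123) and did not pass. Leaving out wild-type ibuprofen replicate 5 gave -0.26 ± 0.09 (SE, adjusted p = 0.241). The adjusted p was 0.0414 without APP-PS1 ibuprofen replicate 2 (-0.50) and 0.0423 without wild-type ibuprofen replicate 4 (-0.47), so leaving out 1 array can move this gene past the threshold. With the neuron marker covariate the difference was 0.19 ± 0.20 (SE).

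Alox8, the 8-lipoxygenase and the other neighbour of Alox12b (probe set 10387257), also had its lowest mean in APP-PS1 mice on ibuprofen, by a smaller margin. Its APP-PS1 ibuprofen arrays gave 9.01, 9.28, 8.95, 9.07 and 9.19, a mean of 9.10 ± 0.13, and APP-PS1 control arrays 9.39, 9.25, 9.39, 9.20 and 9.24, a mean of 9.29 ± 0.09. Among wild-type arrays its mean was 9.20 ± 0.10 without ibuprofen and 9.27 ± 0.15 with it. The ibuprofen difference in APP-PS1 mice was -0.19 ± 0.08 (SE, limma adjusted p = 0.716), with 4 of 5 treated arrays below every control array. Between genotypes on ibuprofen it was -0.17 ± 0.08 (SE, adjusted p = 0.197), and -0.10 ± 0.07 (SE) without wild-type ibuprofen replicate 5. With the neuron marker covariate the Alox8 difference was 0.19 ± 0.12 (SE) between genotypes on ibuprofen and 0.03 ± 0.09 (SE) for ibuprofen in APP-PS1 mice.

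Alox12, the platelet-type 12-lipoxygenase (probe set 10387821), and Alox15, the 12/15-lipoxygenase of macrophages (probe set 10387855), had genotype differences above 0 on ibuprofen that did not pass. Alox12 had a mean of 6.79 ± 0.11 in wild-type control, 6.66 ± 0.20 in wild-type ibuprofen, 6.76 ± 0.13 in APP-PS1 control and 6.79 ± 0.12 in APP-PS1 ibuprofen mice. The low array among these was wild-type ibuprofen replicate 1, at 6.32. The genotype difference on ibuprofen was 0.14 ± 0.09 (SE, limma adjusted p = 0.326).

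Alox15 gave 6.83, 7.07, 6.85, 7.28 and 6.45 in wild-type mice on ibuprofen, a mean of 6.90 ± 0.31, beside 7.14 ± 0.16 on control chow. Among APP-PS1 arrays it was 7.09 ± 0.04 without ibuprofen and 7.12 ± 0.18 with it. The ibuprofen difference in wild-type mice was -0.25 ± 0.12 (SE, limma adjusted p = 0.432), and the genotype difference on ibuprofen was 0.22 ± 0.12 (SE, adjusted p = 0.225). Without wild-type ibuprofen replicate 5 these were -0.13 ± 0.11 (SE) and 0.11 ± 0.10 (SE), and with the neuron marker covariate the genotype difference was -0.09 ± 0.22 (SE).

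Alox5, the first enzyme of leukotriene synthesis (probe set 10547153), kept within a narrow range of 7.50 to 7.90 over all arrays. Its means were 7.65 ± 0.12 and 7.69 ± 0.14 in wild-type mice on control and ibuprofen chow. In APP-PS1 mice they were 7.69 ± 0.05 and 7.75 ± 0.07. The 4 differences between groups ran from 0.03 to 0.06, and all groups overlapped. The 95% interval for ibuprofen in wild-type mice ran from -0.12 to 0.19, and that for genotype on control chow from -0.12 to 0.20. Without wild-type ibuprofen replicate 5 the ibuprofen difference in wild-type mice was -0.02 ± 0.07 (SE) and the genotype difference on ibuprofen was 0.11 ± 0.07 (SE).

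Alox5ap, which presents arachidonic acid to Alox5 (probe set 10527638), was uniform in wild-type control mice, at 8.82, 8.78, 8.83 and 8.77. Wild-type arrays on ibuprofen gave 9.08, 8.77, 8.73, 8.86 and 9.35, and APP-PS1 control arrays 9.19, 8.73, 8.82, 8.75 and 8.88. APP-PS1 arrays on ibuprofen gave 8.57, 8.87, 8.90, 8.72 and 8.98. The highest values, 9.35, 9.19 and 9.08, belonged to wild-type ibuprofen replicate 5, APP-PS1 control replicate 1 and wild-type ibuprofen replicate 1.

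The Alox5ap difference for ibuprofen in wild-type mice was 0.16 ± 0.11 (SE, limma adjusted p = 0.490), and -0.01 without these 3 arrays. Since they hold the highest Alox5ap values and include wild-type ibuprofen replicates 1 and 5, a smaller difference follows from leaving them out. Nothing further is read from it. Genotype gave 0.07 ± 0.11 (SE, adjusted p = 0.976) on control and -0.15 ± 0.11 (SE, adjusted p = 0.348) on ibuprofen chow. Microglia and macrophage markers (16 of 17 measured), the cells best known for this gene, averaged 9.60 ± 0.06 in wild-type control, 9.73 ± 0.18 in wild-type ibuprofen, 9.72 ± 0.08 in APP-PS1 control and 9.80 ± 0.12 in APP-PS1 ibuprofen mice. The marker means of the 3 arrays with the highest Alox5ap were 9.88, 9.85 and 9.96, in the order given above. Over 19 arrays, which share groups, Alox5ap had r = 0.55 with this marker mean, and 0.49 without wild-type ibuprofen replicate 5. Its r was 0.60 with astrocyte and 0.61 with endothelial markers (0.56 and 0.35 without that array). Microglia markers were thus not singled out by these correlations. The group means of Alox5ap were in another order than those of the microglia markers, with wild-type ibuprofen highest.

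The Alox5ap genotype difference on ibuprofen was -0.06 ± 0.09 (SE) without wild-type ibuprofen replicate 5. It was -0.23 with the microglia marker covariate (limma adjusted p = 0.0506) and 0.10 ± 0.20 (SE) with the neuron marker covariate. Without a covariate it was 0.04 ± 0.07 (SE) with array weights, and 0.02 ± 0.07 (SE) without the 3 arrays with the highest Alox5ap. The sign of this difference thus depends on the covariate, on the weighting and on a few arrays.

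Lta4h, the hydrolase that makes leukotriene B4 (probe set 10365749), had its lowest mean in APP-PS1 mice on ibuprofen. Those arrays gave 9.36, 9.40, 9.25, 9.10 and 9.22, a mean of 9.27 ± 0.12, and wild-type arrays on ibuprofen gave 9.45, 9.45, 9.45, 9.29 and 9.77, a mean of 9.48 ± 0.18. Without ibuprofen its mean was 9.33 ± 0.12 for wild-type arrays and 9.40 ± 0.09 for those from APP-PS1 mice. The genotype difference on ibuprofen was -0.22 ± 0.08 (SE, limma adjusted p = 0.150), and -0.14 ± 0.07 (SE) without wild-type ibuprofen replicate 5. With the neuron marker covariate it was 0.14 ± 0.13 (SE).

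Ltc4s, the synthase of leukotriene C4 (probe set 10385583), varied most of the 10 genes, with a range of 1.45 over all arrays. The values were 8.50, 8.13, 8.02 and 8.06 in wild-type control, and 8.14, 8.10, 7.95, 8.04 and 9.35 in wild-type ibuprofen mice. In APP-PS1 mice they were 7.89, 8.08, 7.97, 8.85 and 8.69 on control and 8.78, 8.11, 8.37, 8.01 and 8.84 on ibuprofen chow. High and low arrays thus occurred in each group, and no group stood apart.

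The arrays with high Ltc4s were those with high choroid plexus markers. On the 7 arrays where the mean of these markers lay above 9 (9.05 to 10.35), Ltc4s was 8.37 to 9.35, and on the other 12 (7.70 to 8.24) it was 7.89 to 8.14. Of the 7 arrays, 1 was wild-type control, 1 wild-type ibuprofen, 2 APP-PS1 control and 3 APP-PS1 ibuprofen. The genes most like Ltc4s over the 19 arrays were Spint2, Rbm47, Rdh5, Folr1 and Tmem72 (Pearson r = 0.98, 0.97, 0.97, 0.97 and 0.97), of which Folr1 and Tmem72 belong to the choroid plexus list. Ltc4s was added to the genes compared in this way after its values were seen.

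The 4 Ltc4s differences between groups ran from 0.11 to 0.13, with SE of 0.23 to 0.25. Without wild-type ibuprofen replicate 5 the genotype difference on ibuprofen was 0.37 ± 0.19 (SE, limma adjusted p = 0.351), and the ibuprofen difference in wild-type mice was -0.12 ± 0.20 (SE). With the choroid plexus marker mean as a covariate the genotype difference on ibuprofen moved from 0.11 ± 0.23 (SE, limma adjusted p = 0.774) to -0.18 ± 0.08 (SE, adjusted p = 0.140). With wild-type ibuprofen replicate 5 left out as well it was -0.05 ± 0.07 (SE). No direction can therefore be given for this gene.

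**Figure D3:**
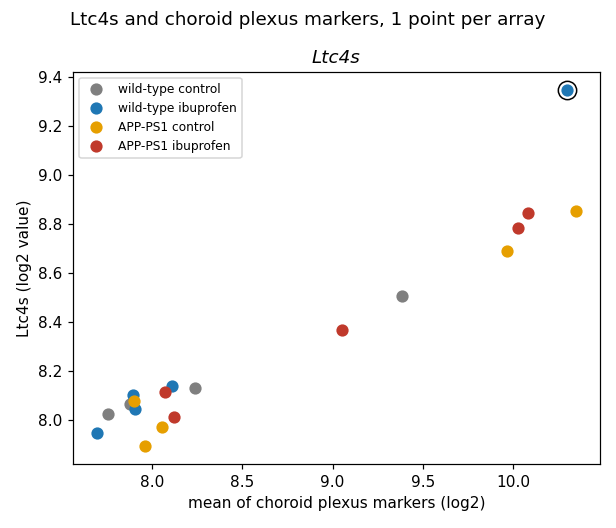
Log2 value of Ltc4s against the mean of 15 choroid plexus markers, 1 point per array, coloured by genotype and diet, with wild-type ibuprofen replicate 5 ringed. The 7 arrays with marker means above 9 have Ltc4s values of 8.37 to 9.35, and the other 12 lie at 7.89 to 8.14.

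Cysltr1, the receptor for leukotriene D4 (probe set 10606355), averaged 7.24 ± 0.06 in wild-type control, 7.42 ± 0.23 in wild-type ibuprofen, 7.37 ± 0.08 in APP-PS1 control and 7.37 ± 0.14 in APP-PS1 ibuprofen mice. Wild-type control was the lowest group, and every group overlapped every other. The high array was wild-type ibuprofen replicate 5 at 7.82. Ibuprofen in wild-type mice gave 0.18 ± 0.10 (SE, limma adjusted p = 0.433), and genotype on control chow 0.12 ± 0.10 (SE, adjusted p = 0.943). Without that array the ibuprofen difference in wild-type mice was 0.08 ± 0.07 (SE).

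Across the 4 comparisons of a pair of groups, which share arrays with one another, limma passed none of the 9 genes other than Alox12b. Between genotypes on ibuprofen 0 of 9 were called, beside 0.271% of all genes (54 of 19938). At an unadjusted p under 0.05, Aloxe3, Alox8 and Lta4h were lower (3 of 9) and 0 were higher, beside 18.2% and 6.25% of all genes. The median of the 9 was -0.05, as was that of all genes. Leaving out wild-type ibuprofen replicate 5, 1 of 9 was lower at that level, beside 9.9% of all genes, and the median of the 9 was 0.05. None of the 9 separated the groups without overlap, which 2.06% of all genes did by being lower and 0.231% by being higher.

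For ibuprofen in APP-PS1 mice 0 of 9 were called, beside 0% of all genes. Alox8 alone was lower at an unadjusted p under 0.05 and 0 were higher, beside 4.66% and 1.82% of all genes. None of the 9 separated these groups, which 2.27% of all genes did downward and 0.507% upward. For ibuprofen in wild-type mice 0 of 9 were called, beside 0% of all genes, and 0 had an unadjusted p under 0.05, beside 1.95% of genes lower and 9.08% higher. The median of the 9 was 0.13, with 7 of 9 above 0, and that of all genes was 0.05. Without replicate 5 of the treated group the median of the 9 was 0.01, with 5 of 9 above 0, and that of all genes was 0.02. Again none separated the groups, beside 0.301% of genes downward and 1.94% upward. For genotype on control chow 0 of 9 were called, beside 0.01% of all genes, and 0 had an unadjusted p under 0.05, beside 1.07% lower and 4.8% higher. None of the 9 separated the groups, beside 0.903% of genes downward and 2.94% upward, and the lowest adjusted p was 0.943.

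The interaction, which asks whether ibuprofen acts differently by genotype, called 0 of 9 and 0% of all genes. Lta4h (-0.28 ± 0.12, SE, limma adjusted p = 0.216) and Alox8 (-0.26 ± 0.11, SE, adjusted p = 0.221) were lower at an unadjusted p under 0.05 and 0 were higher, beside 16% and 4.5% of all genes. When wild-type ibuprofen replicate 5 was left out, 1 of 9 was lower at that level, beside 12.6% of all genes. Averaged over diets, genotype called 0 of 9 beside 0.0251% of all genes. Aloxe3 was lower at an unadjusted p under 0.05 (-0.24 ± 0.09, SE, limma adjusted p = 0.545) and 0 were higher, beside 5.36% and 2.34% of all genes. Averaged over genotypes, ibuprofen called 0 of 9 and 0% of all genes, with 0 at an unadjusted p under 0.05, beside 0.466% of genes lower and 1.27% higher.

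**Figure D4:**
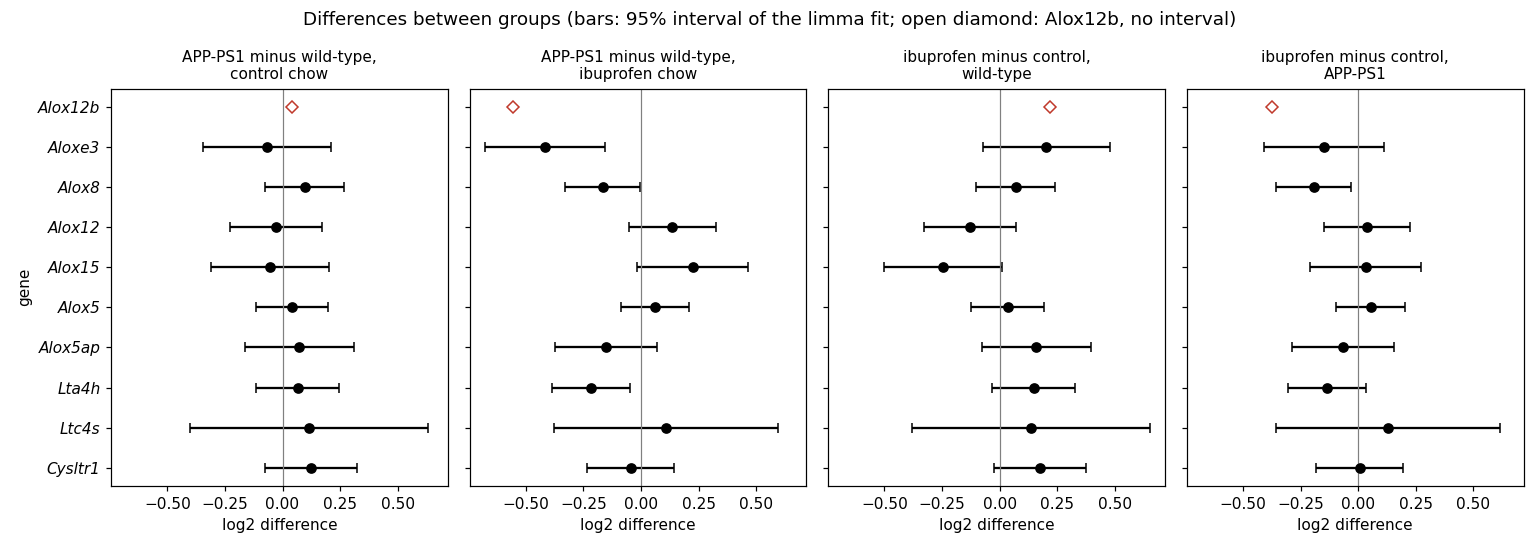
Log2 differences of the 10 genes (rows) in the 4 comparisons of a pair of groups (panels), as points with 95% intervals from the limma fit, and an open diamond without an interval for Alox12b. Aloxe3, Alox8 and Lta4h have intervals below 0 between genotypes on ibuprofen before adjustment for the number of genes, and Ltc4s has the widest intervals.

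Among the 10 genes, the 3 neighbours and Lta4h varied together over the arrays. Pearson's r over 19 arrays was 0.77 for Alox12b with Aloxe3, 0.70 for Alox12b with Alox8 and 0.74 for Aloxe3 with Alox8, and Lta4h had r of 0.76 to 0.82 with these 3. Without wild-type ibuprofen replicate 5 the values for the 3 neighbours were 0.69, 0.58 and 0.62. These are descriptions over arrays that share groups and differ in tissue makeup. Alox15 ran against them, with r = -0.71 for Aloxe3 and -0.80 for Lta4h, and -0.36 and -0.63 without that array. Alox5 had r of 0.25 with its partner Alox5ap and -0.11 without it.

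The named genes most like Alox12b were Dhx33, Amer3, Cacna1h, Mtrr and Ppm1l, with r from 0.91 to 0.94 over the 19 arrays. Lta4h was most like Gnl2, Khdc4, Ctr9, Hs2st1 and Bclaf1 (0.92 to 0.96), Alox5ap like Wsb2, Uqcrc1, Stx6, Lysmd1 and Marchf5 (0.92 to 0.94), and Alox5 like Olfr985, Mylk, St8sia2, Optc and Sh3tc1 (0.79 to 0.81). None of the other 9 genes was among the 100 genes most like any of these 4.

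**Figure D5:**
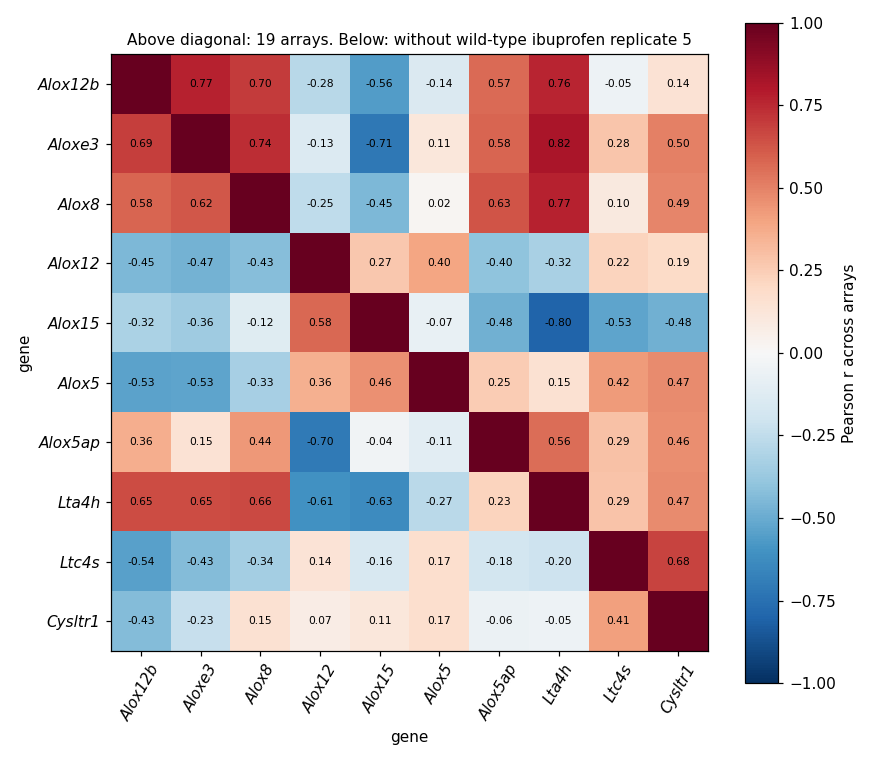
Pearson r between pairs of the 10 genes across arrays, above the diagonal over 19 arrays and below it without wild-type ibuprofen replicate 5. Alox12b, Aloxe3, Alox8 and Lta4h have r of 0.70 to 0.82 with one another above the diagonal and 0.58 to 0.69 below it.

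A wider list of genes for arachidonate release, reacylation, conversion and removal of lipoxygenase products, their receptors and the skin barrier partners of Alox12b held 67 measured genes of 76. No gene of it passed in any of the 7 comparisons. On ibuprofen chow 39 of 67 were lower in APP-PS1 (median -0.03, all genes -0.05), with 3 higher and 6 lower at an unadjusted p under 0.05, beside 6.25% and 18.2% of all genes. Dpep1, a dipeptidase that cleaves leukotriene D4, gave 0.50 ± 0.11 (SE, limma adjusted p = 0.0520), and 4 of 5 APP-PS1 values exceeded all those of wild-type mice. Dicer1, the ribonuclease that binds Alox5, gave -0.24 ± 0.08 (SE, adjusted p = 0.131).

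The other roles are headings of the list and need not hold for each gene under them. On ibuprofen chow the smallest p under lipoxin and resolvin receptors was that of Gpr37 (-0.20 ± 0.07, SE, limma adjusted p = 0.142). Under eicosanoid receptors it was that of Gpr75 (-0.15 ± 0.05, SE, adjusted p = 0.137). Pla2g4e had it among the phospholipases (-0.20 ± 0.09, SE, adjusted p = 0.195) and Sdr9c7 among the skin barrier genes (0.17 ± 0.08, SE, adjusted p = 0.207). For reacylation of arachidonate it was Lpcat3 (-0.07 ± 0.07, SE, adjusted p = 0.490). Alox12e, an epidermal lipoxygenase gene, gave 0.03 ± 0.07 (SE, adjusted p = 0.813).

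On control chow 41 of 67 were higher in APP-PS1 (median 0.06, all genes 0.02), with 10 higher and 0 lower at an unadjusted p under 0.05, beside 4.8% and 1.07% of all genes. The smallest p was that of Acsl4, which activates arachidonic acid for reacylation, at 0.23 ± 0.06 (SE, limma adjusted p = 0.699). It was followed by Plaa, a phospholipase A2 activating protein, at 0.20 ± 0.06 (SE, adjusted p = 0.762), and by Hpgd, which oxidises prostaglandins and lipoxins, at 0.29 ± 0.09 (SE, adjusted p = 0.767). For these and for the fatty acid elongase Elovl4 (0.16 ± 0.05, SE, adjusted p = 0.767), all 5 APP-PS1 values exceeded the 4 wild-type ones. As given above, 2.94% of all genes were higher without overlap there.

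For ibuprofen in APP-PS1 mice 40 of 67 were lower (median -0.03, all genes -0.02), with 2 higher and 4 lower at an unadjusted p under 0.05, beside 1.82% and 4.66% of all genes. Plaa (-0.14 ± 0.06, SE) lay below every control array on 5 of 5 treated arrays, and Gpr31b, a receptor gene for 12-HETE (0.26 ± 0.13, SE), above every control array on 5 of 5. Both had limma adjusted p = 0.716, and 2.27% of all genes were lower and 0.507% higher without overlap. In wild-type mice 48 of 67 were higher on ibuprofen (median 0.08, all genes 0.05), with 11 higher and 1 lower at an unadjusted p under 0.05, beside 9.08% and 1.95% of all genes. With wild-type ibuprofen replicate 5 left out, 39 of 67 were higher (median 0.02, all genes 0.02), with 4 higher and 0 lower at that level, beside 3.43% and 1.22% of all genes. Elovl4 (0.14 ± 0.05, SE), the anandamide hydrolase Faah (0.18 ± 0.07, SE) and Ptgr1, which inactivates leukotriene B4 (0.25 ± 0.11, SE), each had adjusted p = 0.432.

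Markers of other cells known for these genes had group means in narrow ranges, and limma called 0 of the 25 genes of these 3 lists in the 4 comparisons of a pair of groups. At an unadjusted p under 0.05 there were 4 between genotypes on ibuprofen, 1 on control chow, 2 for ibuprofen in wild-type and 0 in APP-PS1 mice. The shares of all genes at that level were 24.46%, 5.87%, 11.02% and 6.48%, in the same order. The counts for these lists did not exceed those shares. Platelet markers (6 of 7 measured), beside Alox12, had group means from 7.66 to 7.72. Keratinocyte markers (10 of 12 measured), beside Alox12b and Aloxe3, had group means from 7.41 to 7.48. Mast cell markers (9 of 9 measured), beside Ltc4s and Alox5, had group means from 6.69 to 6.72. Within the mast cell list, Kit had group means of 10.83 to 11.01, while Ms4a2 and Fcer1a lay at 5.14 to 5.35. Genes this dim may not stand above background, so narrow group means say little about these cells. The part of these 3 lists in the values of the 10 genes was not tested.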

How the data were processed

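RNA from hippocampus was measured on Affymetrix arrays, 1 column per array. Each probe set has 1 deposited log2 level per array. The submitters' processing notes name Partek 6.5 and RMA as the authors' tools, with settings not given in the sources used here. No further normalization was applied, and the number of arrays limits the precision. Of 35556 probe sets, 21789 had 1 gene symbol in an annotation of 2016, 1621 several and 12146 none. The probe set with the highest mean stood for each of 19938 genes.

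One limma fit (limma 3.58.1 and the package data.table at version 1.17.8 in R 4.3.3) held a mean per group over 19 arrays, with an intensity trend, 15 residual and 6.65 prior degrees of freedom. Tests were two-sided, adjusted by Benjamini and Hochberg over all genes, with a threshold of 0.05. The fit was tested on simulated data. The members, lists and tests were chosen with earlier results of these data known. Named genes were the 10 members, list genes that passed or had the smallest p of their role, and the 5 genes most correlated with Alox12b, Alox5, Alox5ap and Lta4h. Alternatives covered normalization, dim genes, probe sets, empirical Bayes settings, array weights, the groups fitted, the replicate block, marker covariates and left-out arrays. The neuron covariate, and the choroid plexus covariate with an array left out, were chosen after seeing the data. Scan dates, sex and litter are not in the labels. Figures used Python 3.11.15 and matplotlib 3.10.9.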

Additional observations from a re-analysis of the deposited data

Results flagged for a closer look

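A gap test within each group of 4 or 5 arrays was run on 40 groups (10 genes in 4 groups), where chance alone sets apart 1 array in about 5% of groups, and it marked 5 values, which came from 3 arrays. Of these values, 3 were from wild-type ibuprofen replicate 5, which lay high for Aloxe3 (10.39, next 9.71), Ltc4s (9.35, next 8.14) and Cysltr1 (7.82, next 7.40). Aloxe3 was also low in APP-PS1 control replicate 4 (9.29, next 9.51) and high in wild-type control replicate 1 (9.63, next 9.56), the latter in a group with an SD of 0.04.

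Alox12b differed in opposite directions on ibuprofen in the 2 genotypes. All 5 APP-PS1 arrays on ibuprofen lay below the APP-PS1 control mean and all 5 wild-type arrays on ibuprofen lay above the wild-type control mean. The difference between these effects was -0.60. Treated and control arrays overlapped in both genotypes. Of the treated arrays, 4 of 5 lay below every APP-PS1 control and 3 of 5 above every wild-type control. Medians over all genes leaned the same way, at -0.02 for APP-PS1, 0.05 for wild-type and -0.07 for the interaction. How many other genes show this pattern is not known. The Alox12b difference in wild-type mice was 0.22, and 0.13 without wild-type ibuprofen replicate 5. This difference was not tested, since the gene was chosen for its values in these arrays.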

How the results depend on the processing

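Results were recomputed under 33 alternatives, 19 of which left out 1 array each. Of the 9 genes other than Alox12b, none was called under any of them for ibuprofen in either genotype, genotype on control chow, the interaction or the ibuprofen average. Between genotypes on ibuprofen, array weights called 1 (Aloxe3, limma adjusted p = 0.0157), where all genes had 1004 calls against 54 in the main fit. The microglia marker covariate called 4 (Aloxe3, Alox8, Alox15 and Lta4h, adjusted p = 0.00804 to 0.0467), where all genes had 6398 calls. Calls thus rose over all genes under both alternatives, and the cause was not tested. Leave-outs gave 0 to 1. For the genotype average, 1 was called with the microglia covariate, beside 1700 calls over all genes against 5 in the main fit. The wider list had 0 calls in the main analysis. Between genotypes on ibuprofen it had 2 without the dimmest genes, 2 with robust empirical Bayes, 2 with the replicate block, 5 with array weights, 16 with the microglia covariate and 0 to 5 in leave-outs. For the genotype average it had 2 with array weights and 7 with the microglia covariate, beside 342 and 1700 calls over all genes. For the interaction it had 1 with array weights, beside 174 over all genes. The list counts thus rose where those over all genes rose. Over all genes, calls between genotypes on ibuprofen ran from 3 to 6398, and from 10 (without APP-PS1 ibuprofen replicate 4) to 1490 (without wild-type ibuprofen replicate 4) in leave-outs.

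Over all genes, array weights gave 174 calls for the interaction, 108 for the ibuprofen effect under APP-PS1, 2 for that under wild-type and 8 for genotype on control chow, against 0, 0, 0 and 2. Of 2038 recomputed differences of the 9 genes, none of which was called in the main analysis, 144 changed sign. Replicate numbers were not treated as pairs in the main fit. Correlations of same-numbered deviations ran from -0.27 to 0.60, and at most 2 of 5 samples correlated best with their own number. The highest were for replicate 4, at 0.60 for ibuprofen in wild-type mice and 0.57 between genotypes on ibuprofen. Whether arrays of the same number share a batch was not tested. The replicate block called 0 of the 9 genes and 197 genes in all between genotypes on ibuprofen, against 54 without it.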
